A study of Mus musculus with 12 samples.

Results

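The mRNA of cells exposed for 24 h to the particle NP-D@MP was set against that of cells exposed for the same time to NP-D@M, the particle whose name lacks the letter P. Both groups received D, and each has 3 mouse libraries, 6 of the 12 in the series; the other 6 are from cells given NP@M or PBS. A gene entered when at least 3 of these 6 libraries had a value of at least 1 FPKM (fragments per unit of gene length and library size, as the authors scaled them), which held for 5869 of the 11669 genes in the deposited table. The series title speaks of a nanodrug coated with engineered cancer cell membrane that targets cyclin-dependent kinases (CDKs) and is combined with a PD-L1 antibody, but what TAMC, NP, D, M and P stand for is nowhere written out in the labels. They give the cells as immune cells from marrow, with TAMC under cell line, whereas the extraction text refers to retinas. Nothing states that the 3 libraries of a group came from separate cultures, so the p-values measure the spread between these libraries, which may be technical.

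Myeloid cells answer microbial and injury signals through NF-kB, a family of transcription factors that switches on genes for cytokines, chemokines and the prostaglandin-making enzyme COX-2. Neutrophils carry antimicrobial proteins in granules whose genes are transcribed at successive stages of maturation in the marrow, in part under C/EBP transcription factors. PD-L1, the product of Cd274, is a surface ligand that dampens T cells through PD-1 and is induced on myeloid cells by inflammatory signals.

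The libraries held between 15621052 and 17338264 reads recovered from the values. Macrophage markers were abundant in both groups: the lysozyme gene Lyz2 had 28146, 29384 and 30842 FPKM with NP-D@MP, against 25459, 33149 and 23236 FPKM with NP-D@M, and no retina marker passed the filter. Mitochondrially encoded genes took 3.17%, 1.57% and 1.06% of the reads with NP-D@MP, against 1.74%, 2.01% and 1.93% with NP-D@M. The share thus varied more among the NP-D@MP libraries, with a mean of 1.93% ± 1.10 against 1.89% ± 0.137 (SD, n = 3 each; 2-sided exact permutation p = 1, where 3 against 3 cannot go below 0.1). Counting error was far smaller than this spread: the 95% Wilson interval was 3.16% to 3.18% in NP-D@MP replicate 1.

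Within its group, NP-D@MP replicate 1 stood apart. Its correlation across genes was 0.975 with replicate 2 and 0.969 with replicate 3, while replicates 2 and 3 reached 0.985. The pair at 0.969 is below every pair between the groups (0.971 to 0.986). Against the NP-D@M libraries, NP-D@MP replicate 1 had 0.971, 0.980 and 0.977, and NP-D@MP replicate 3 was no closer, at 0.971, 0.972 and 0.977. NP-D@MP replicate 1 also had the lowest weight of the 6 libraries (0.464) in a limma fit that weights libraries. Without it limma called 0 genes, with 957 at an unadjusted p under 0.05, and the median log2 fold change was -0.34 in the NF-kB list and 1.09 in the neutrophil list described further on, beside 0.08 over all genes.

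At an adjusted p under 0.05, limma on log2(FPKM + 1) called 0 of the 5869 genes (0%), and the lowest adjusted p was 0.0915. By unadjusted p, 553 genes (9.42%) were under 0.05, 335 of them higher and 218 lower with NP-D@MP. Limma's voom on the recovered reads called 4 genes (0.0682%): the chemokine gene Cxcl5, Ptgs2, which encodes COX-2, and Clec4e, a C-type lectin receptor, fell, and the neutrophil granule gene Ngp rose. The differences were small for most genes, with a median log2 fold change of 0.06 and 5th to 95th percentiles of -0.46 and 0.57. All 3 NP-D@MP values lay above all 3 NP-D@M values for 582 genes (9.92%) and below them for 403 (6.87%), so that 59.1% of these non-overlapping genes were higher. With the authors' factor between libraries replaced by the read totals, 351 (5.98%) were higher and 649 (11.1%) lower, or 35.1% higher; this scaling moved log2 fold changes by -0.08 in the median. The balance of small differences therefore depends on the scaling. On the deposited scaling, 27 non-overlapping genes were at or above a log2 fold change of 1 and 23 at or below -1. Genes near these limits move with the scaling too. With read totals the log2 fold change of Cd177 went from 1.04 to 0.94 and that of Itm2a from -0.998 to -1.09. Of the genes tested, 28 passed the filter through NP-D@MP alone and 24 through NP-D@M alone.

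**Figure D1:**
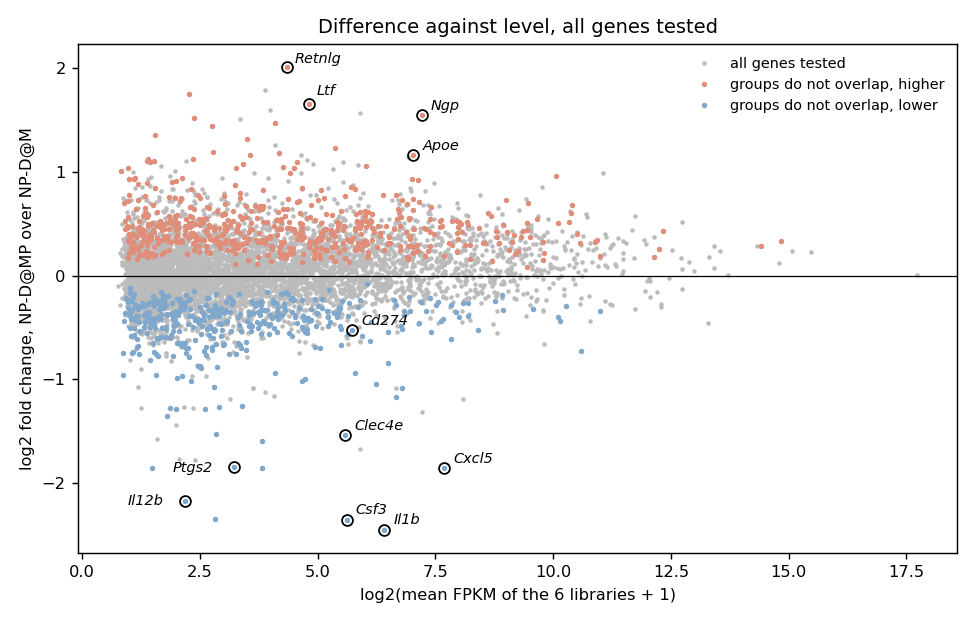
Log2 fold change of NP-D@MP over NP-D@M against log2(mean FPKM of the 6 libraries + 1) for the 5869 genes tested. Circles and names mark Cxcl5, Ptgs2, Clec4e, Il12b, Il1b, Csf3, Ngp, Ltf, Retnlg, Cd274 and Apoe. Most genes lie close to the median of 0.06, and the marked genes reach 2.01 (Retnlg) and -2.45 (Il1b).

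The genes lower with NP-D@MP were led by inflammatory mediators. Of the 10 lower genes with the smallest p, 7 encode a cytokine (Il1b, Il6 and Il12b), a chemokine (Cxcl5), an enzyme of prostaglandin E2 synthesis (Ptgs2 and Ptges) or an inflammatory receptor (Clec4e). The chemokine gene Cxcl5, whose product attracts neutrophils, had 77.5, 114 and 76.7 FPKM with NP-D@MP, against 287, 318 and 359.5 FPKM with NP-D@M. The groups were far apart, with means of 89.5 ± 21.5 and 322 ± 36.5 FPKM (SD, n = 3 each). The log2 fold change was -1.85 (SE 0.20), with an adjusted p of 0.0915 by limma and 0.00209 by voom (0.000613 to 1 over the alternatives). Here and below, the alternatives include a test against a log2 fold change of 1, which asks more than whether the groups differ. Cxcl5 (ENSMUSG00000029371) lies on chr5:90759360-90761624 of GRCm38, and RefSeq's promoter table has no entry for it.

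The promoters of 4 further genes of this group show the DNA upstream of the transcripts that were lower: Ptgs2 (chr1:150099781-150100080, plus strand), Il12b (chr11:44399813-44400112, plus strand), Il6 (chr5:30012864-30013163, plus strand) and Il1b (chr2:129371090-129371389, minus strand). Each is 250 bases before to 50 after the start, from RefSeq on GRCm38.p6, written 5′ to 3′, and capitals mark a match to the NF-kB consensus on either strand.
Ptgs2: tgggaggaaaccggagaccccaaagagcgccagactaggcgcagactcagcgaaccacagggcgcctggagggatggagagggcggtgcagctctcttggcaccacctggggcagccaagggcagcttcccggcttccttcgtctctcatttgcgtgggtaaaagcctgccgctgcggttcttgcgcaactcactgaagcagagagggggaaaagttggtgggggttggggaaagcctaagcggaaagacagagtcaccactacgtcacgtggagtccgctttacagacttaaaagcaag
Il12b: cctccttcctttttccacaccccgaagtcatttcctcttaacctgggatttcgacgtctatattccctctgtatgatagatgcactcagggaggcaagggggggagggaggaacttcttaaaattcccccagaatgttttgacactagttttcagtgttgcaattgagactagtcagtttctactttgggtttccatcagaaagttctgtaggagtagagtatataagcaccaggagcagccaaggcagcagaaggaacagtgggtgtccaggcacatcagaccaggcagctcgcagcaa
Il6: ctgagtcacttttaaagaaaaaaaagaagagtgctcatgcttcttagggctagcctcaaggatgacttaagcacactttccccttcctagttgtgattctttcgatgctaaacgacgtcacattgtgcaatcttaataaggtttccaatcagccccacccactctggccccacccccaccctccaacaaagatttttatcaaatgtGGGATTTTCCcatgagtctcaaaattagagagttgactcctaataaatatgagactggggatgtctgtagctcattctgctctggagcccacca
Il1b: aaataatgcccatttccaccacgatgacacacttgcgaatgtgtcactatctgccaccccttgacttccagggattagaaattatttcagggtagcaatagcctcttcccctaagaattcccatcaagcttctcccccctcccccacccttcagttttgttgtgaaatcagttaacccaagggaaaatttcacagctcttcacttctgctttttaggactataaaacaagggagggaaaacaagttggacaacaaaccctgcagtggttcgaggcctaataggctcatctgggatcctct
The Il6 window held 1 match, beginning 44 bases before the start, and the other 3 held none. Over the 10 lower genes, 8 had an entry and 1 held a match, beside 2779 of all 32851 promoters (8.46%). A gene was counted when any of its promoters matched, whereas the share is over single promoters, so the units differ. A match describes these letters only.

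Both enzymes of inducible prostaglandin E2 synthesis were lower. Ptgs2 had 2.95, 4.23 and 2.05 FPKM with NP-D@MP, against 11.97, 11.7 and 16.7 FPKM with NP-D@M (log2 fold change -1.84, SE 0.24, adjusted p 0.189 by limma and 0.02005 by voom, 0.0152 to 1 over the alternatives). Ptges, the terminal prostaglandin E synthase, had 4.74, 5.96 and 4.69 FPKM with NP-D@MP, against 17.3, 10.9 and 13.2 FPKM with NP-D@M (log2 fold change -1.26, SE 0.20, limma adjusted p 0.212). In neither gene did the groups overlap.

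Cytokine genes had large differences. Il1b, encoding interleukin-1 beta, had 14.1, 54.8 and 17.7 FPKM with NP-D@MP, against 183, 99.97 and 137 FPKM with NP-D@M (log2 fold change -2.45, SE 0.48, limma adjusted p 0.263). NP-D@MP replicate 2 was the nearest to the other group, and without it the log2 fold change was -3.03 with a limma adjusted p of 0.0312 (0.0312 to 1 over the alternatives). Il12b, the p40 subunit shared by interleukins 12 and 23, had 0.756, 0.624 and 0.258 FPKM with NP-D@MP, against 11.2, 4.08 and 4.30 FPKM with NP-D@M (log2 fold change -2.17, SE 0.35, limma adjusted p 0.212). It passed the filter through NP-D@M alone. Il6 had 2.26, 3.59 and 1.78 FPKM with NP-D@MP, against 10.01, 6.25 and 6.55 FPKM with NP-D@M, a log2 fold change of -1.29 (SE 0.25, limma adjusted p 0.263).

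Further mediators, named after their values were seen, were lower too. Csf3, the granulocyte growth factor G-CSF, had 6.15, 30.0 and 16.1 FPKM with NP-D@MP, against 88.3, 71.6 and 76.6 FPKM with NP-D@M (log2 fold change -2.35, SE 0.47, limma adjusted p 0.263). Il1a had 3.77, 7.09 and 3.67 FPKM with NP-D@MP, against 34.9, 11.7 and 17.8 FPKM with NP-D@M (-1.86, SE 0.39). The groups were apart in both genes. Tnf had 13.7, 19.8 and 34.8 FPKM with NP-D@MP, against 198, 33.8 and 50.3 FPKM with NP-D@M, so the groups overlapped, and its log2 fold change of -1.67 (SE 0.63, limma adjusted p 0.4997) leaned on NP-D@M replicate 1.

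Of the 23 genes listed as NF-kB and inflammatory cytokine genes, 21 were tested, 0 were called, and 8 had lower, non-overlapping groups, with 0 higher, beside 6.87% and 9.92% of all genes. The median log2 fold change was -0.34, beside 0.06 over all genes, and 19 of the 21 were below 0. Without Il12b, which entered through the group where it is high, these were 7 of 20 and -0.33. With read totals 11 were lower without overlap, beside 11.1% of all genes, and the median was -0.42. The 8 are Il1a, Il1b, Il6, Il12b, Ptgs2, the acute phase gene Saa3, the adhesion gene Icam1 and the IL-1 receptor antagonist gene Il1rn. The last 2 differed little: Il1rn, the most abundant of the list, had 606, 784 and 631 FPKM with NP-D@MP, against 824, 899.9 and 786 FPKM with NP-D@M (log2 fold change -0.32). The groups overlapped in the genes of the factors themselves. Nfkb2 had 7.27, 6.01 and 7.30 FPKM with NP-D@MP, against 16.2, 6.44 and 10.01 FPKM with NP-D@M (log2 fold change -0.52, SE 0.29, limma adjusted p 0.584). Relb and Nfkb1 had log2 fold changes of -0.06 and -0.0054 and Rela of 0.39.

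**Figure D2:**
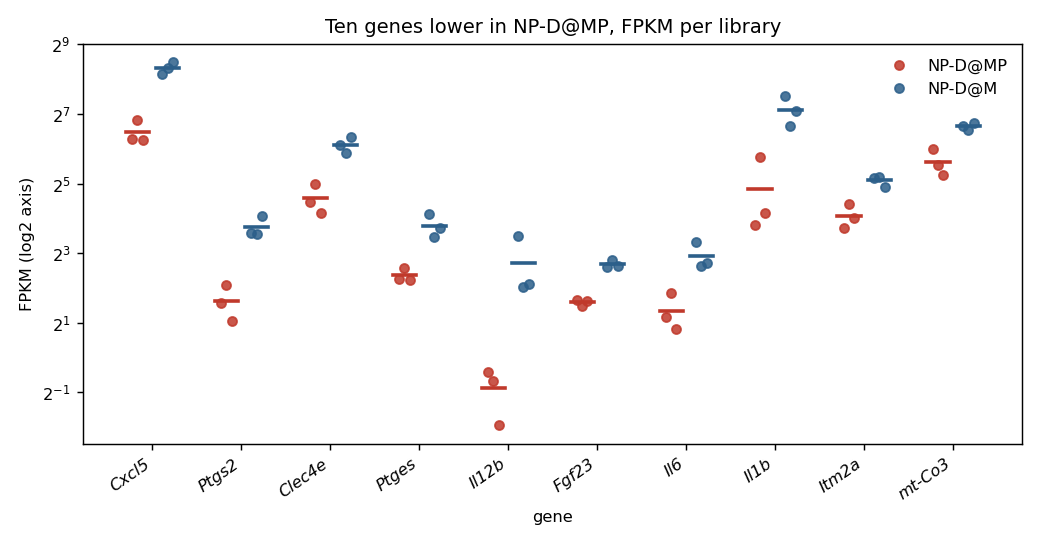
FPKM on a log2 axis in each library for the 10 genes lower with NP-D@MP that had the smallest p, with NP-D@MP left of NP-D@M and a line at each mean. No groups overlap, and the Il1b values of NP-D@MP spread from 14.1 to 54.8.

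Among 19 chemokine genes tested, 5 had lower and 3 higher non-overlapping groups, beside 6.87% and 9.92% of all genes, with a median log2 fold change of -0.46 (-0.26 without NP-D@MP replicate 1). With read totals these were 5 and 0, beside 11.1% and 5.98%. Besides Cxcl5 the lower ones were Cxcl1, Ccl22, Ccl3 and Cxcl3. Cxcl1, another neutrophil attractant, had 40.2, 75.5 and 68.4 FPKM with NP-D@MP, against 193, 103 and 123 FPKM with NP-D@M (log2 fold change -1.17, SE 0.31, limma adjusted p 0.371). Ccl22, a ligand of CCR4, had 52.0, 87.8 and 68.4 FPKM with NP-D@MP, against 196, 117 and 133 FPKM with NP-D@M (-1.08, SE 0.26). Cxcl2 pointed the same way without separating, at 503, 607 and 1004 FPKM with NP-D@MP, against 1245, 1202 and 810.3 FPKM with NP-D@M. The 3 higher without overlap on the deposited scaling were the monocyte attractant Ccl12, the eosinophil attractant Ccl24 and the platelet chemokine Pf4, with log2 fold changes of 0.61, 0.48 and 0.28, the last of which was -0.04 under quantile normalization. The most abundant chemokine gene, Ccl6, had 35225, 58668 and 54911 FPKM with NP-D@MP, against 40159, 41617 and 42178 FPKM with NP-D@M, and its groups overlapped.

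The inflammatory receptor gene Clec4e, for Mincle, which binds mycobacterial glycolipids, had 22.0, 31.7 and 17.8 FPKM with NP-D@MP, against 68.9, 58.9 and 81.2 FPKM with NP-D@M (log2 fold change -1.53, SE 0.23, adjusted p 0.208 by limma and 0.0359 by voom, 0.0225 to 1 over the alternatives). The last 3 of the 10 are of other kinds. Fgf23, a phosphate-regulating hormone, and Itm2a, a membrane protein gene, had log2 fold changes of -0.89 and -0.998 (SE 0.16 and 0.20, limma adjusted p 0.263 each). The mitochondrially encoded oxidase subunit gene mt-Co3 had 64.0, 46.2 and 37.6 FPKM with NP-D@MP, against 100.05, 92.9 and 108 FPKM with NP-D@M (-1.04, SE 0.21). It was the only non-overlapping one of the 15 mitochondrially encoded genes listed and tested, which is near the 6.87% lower over all genes. The median of the 15 was -0.18, beside 0.06 over all genes. The share of mitochondrial reads ran from 1.06% to 3.17% among the NP-D@MP libraries, and its part in the result was not tested.

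The genes higher with NP-D@MP were led by neutrophil granule genes. Ngp, neutrophilic granule protein (ENSMUSG00000032484, chr9:110419747-110423012), had 219, 281 and 163 FPKM with NP-D@MP, against 67.7, 71.4 and 81.1 FPKM with NP-D@M. The means were 221 ± 59.1 and 73.4 ± 6.92 FPKM (SD, n = 3 each), the log2 fold change 1.55 (SE 0.22), and the adjusted p 0.189 by limma and 0.0437 by voom (0.0225 to 1 over the alternatives). Ltf, lactoferrin, an iron-binding protein of secondary granules, had 52.4, 43.8 and 29.5 FPKM with NP-D@MP, against 9.49, 14.7 and 13.3 FPKM with NP-D@M (1.65, SE 0.25, adjusted p 0.208 by limma and 0.0562 by voom, 0.0225 to 1 over the alternatives). Retnlg, resistin-like gamma, had 42.2, 36.2 and 17.4 FPKM with NP-D@MP, against 5.46, 10.8 and 4.94 FPKM with NP-D@M (2.01, SE 0.38, limma adjusted p 0.263). The groups were apart in all 3 genes. In bulk RNA, a different number of cells of a type and a different amount of RNA per cell cannot be told apart.

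The promoters of these 3 genes are shown because they had the largest fold changes of the neutrophil list: Ngp (chr9:110419558-110419857), Ltf (chr9:111019042-111019341) and Retnlg (chr16:48872358-48872657), all on the plus strand, RefSeq, GRCm38.p6, written 5′ to 3′. Capitals mark a C/EBP motif, TTGCNNAA on either strand.
Ngp: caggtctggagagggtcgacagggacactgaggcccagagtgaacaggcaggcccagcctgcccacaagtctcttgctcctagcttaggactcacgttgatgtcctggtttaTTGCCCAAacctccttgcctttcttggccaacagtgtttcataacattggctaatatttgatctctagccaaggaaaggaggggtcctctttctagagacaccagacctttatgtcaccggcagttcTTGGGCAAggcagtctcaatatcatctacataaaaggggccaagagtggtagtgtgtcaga
Ltf: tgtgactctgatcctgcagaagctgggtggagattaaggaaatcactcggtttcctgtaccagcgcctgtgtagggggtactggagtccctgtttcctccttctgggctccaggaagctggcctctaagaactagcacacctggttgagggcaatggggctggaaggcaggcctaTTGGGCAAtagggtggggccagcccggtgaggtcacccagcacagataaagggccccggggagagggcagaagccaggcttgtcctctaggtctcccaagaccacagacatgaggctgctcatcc
Retnlg: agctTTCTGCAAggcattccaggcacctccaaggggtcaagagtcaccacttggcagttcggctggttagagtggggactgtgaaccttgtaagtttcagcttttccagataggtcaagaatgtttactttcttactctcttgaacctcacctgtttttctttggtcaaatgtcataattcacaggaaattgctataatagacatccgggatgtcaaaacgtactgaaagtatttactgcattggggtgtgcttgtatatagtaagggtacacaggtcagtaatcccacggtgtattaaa
The matches begin 138 and 11 bases before the start in Ngp, 75 in Ltf and 246 in Retnlg. Of the 10 higher genes, all with an entry, 3 held a match in any of their promoters, beside 3547 of 32851 single promoters (10.8%).

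Cd177, a surface glycoprotein of neutrophils, had 33.7, 27.4 and 26.9 FPKM with NP-D@MP, against 12.8, 17.5 and 11.6 FPKM with NP-D@M (log2 fold change 1.04, SE 0.19, limma adjusted p 0.263). Pglyrp1, a peptidoglycan-binding granule protein, had 38.0, 31.7 and 23.8 FPKM with NP-D@MP, against 15.5, 16.7 and 10.002 FPKM with NP-D@M (1.10, SE 0.24). Of the 16 neutrophil and granulocyte precursor markers, 14 were in the table and 12 were tested: 7 were higher without overlap, 0 lower and 0 called, beside 9.92% and 6.87% of all genes. The median was 0.84, beside 0.06 over all genes, and with read totals 7 were higher and 1 lower, beside 5.98% and 11.1%, with a median of 0.77. Without Mpo, which entered through the group where it is high, 6 of 11 were higher, with a median of 0.96.

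Not all of the 7 encode granule proteins. Beside Ngp, Ltf and Retnlg they include the primary granule genes Elane and Mpo, the surface marker Ly6g and S100a9, the calprotectin subunit. Elane had 3.60, 3.37 and 2.45 FPKM with NP-D@MP, against 1.65, 0.389 and 0.115 FPKM with NP-D@M (log2 fold change 1.36, SE 0.32), so 1 NP-D@M library reached 1 FPKM. These NP-D@M values of Elane rest on 14, 3 and 1 reads. Ly6g had 24.9, 33.4 and 15.0 FPKM with NP-D@MP, against 8.84, 8.93 and 11.5 FPKM with NP-D@M (1.18, SE 0.28). The limma adjusted p was 0.355 for both. S100a9 had 1139, 1881 and 1209 FPKM with NP-D@MP, against 593, 602 and 985 FPKM with NP-D@M (0.96, SE 0.28), whereas the groups of its partner S100a8 overlapped.

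Other neutrophil genes did not follow. The granule protease genes Mmp8 and Mmp9 overlapped between the groups, as did Prtn3, and Lcn2 had 415, 459 and 306 FPKM with NP-D@MP, against 523, 600 and 375 FPKM with NP-D@M (log2 fold change -0.34). Mmp8, the most abundant marker, had 4916, 4076 and 2846 FPKM with NP-D@MP, against 3336, 5106 and 5081 FPKM with NP-D@M. The list summed to between 5639 and 8162 FPKM with NP-D@MP and between 5345 and 7686 FPKM with NP-D@M, ranges that overlap. Cxcr2, the chemokine receptor of mature neutrophils, stayed below 1 FPKM in all 6 libraries. The part of cell composition in these differences was not tested.

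**Figure D3:**
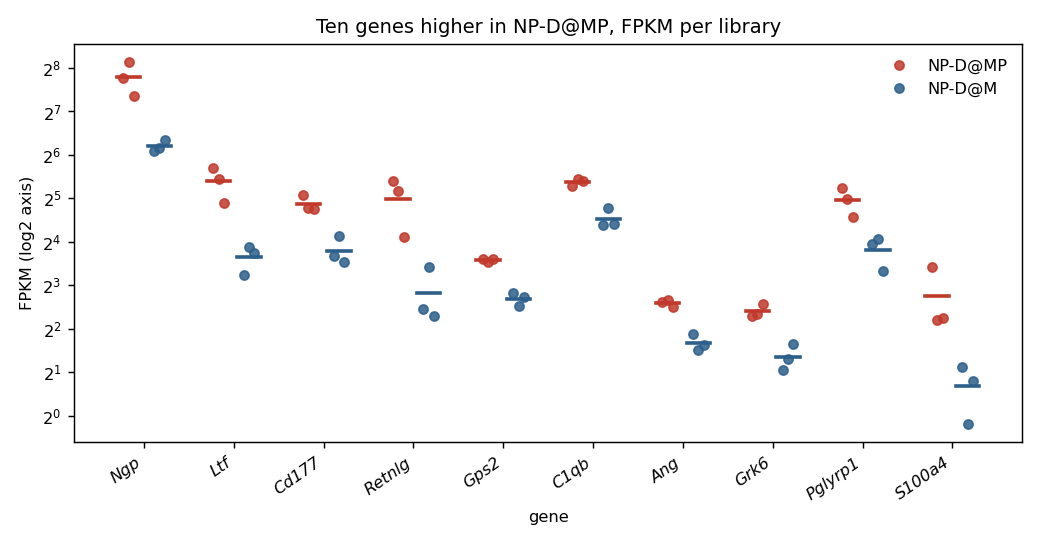
FPKM on a log2 axis in each library for the 10 genes higher with NP-D@MP that had the smallest p, with NP-D@MP left of NP-D@M and a line at each mean. No groups overlap, and the Retnlg values of NP-D@MP spread from 17.4 to 42.2.

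The other higher genes of the 10 included C1qb, a chain of complement C1q made by macrophages, with 39.3, 43.4 and 41.9 FPKM with NP-D@MP, against 20.8, 27.4 and 21.1 FPKM with NP-D@M (log2 fold change 0.83, SE 0.16, limma adjusted p 0.263). S100a4, a calcium-binding protein gene, had 10.8, 4.62 and 4.79 FPKM with NP-D@MP, against 2.18, 0.873 and 1.74 FPKM with NP-D@M (1.52, SE 0.34). Gps2, a subunit of the NCoR corepressor complex, Ang, a secreted ribonuclease, and Grk6, a receptor kinase, had log2 fold changes of 0.80, 0.75 and 0.83.

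Of 15 monocyte and macrophage markers tested, 5 were higher and 2 lower without overlap, beside 9.92% and 6.87% of all genes. Their median log2 fold change was 0.24. With read totals these counts were 4 and 2, beside 5.98% and 11.1% of all genes, so the lower count is near its share. The higher ones were the C1q genes C1qa, C1qb and C1qc, Apoe and Cd68. Apoe, the lipid carrier gene, had 150.0, 115 and 285 FPKM with NP-D@MP, against 69.0, 91.4 and 67.6 FPKM with NP-D@M (log2 fold change 1.16, SE 0.32, limma adjusted p 0.406). The lower ones were Cd14, the lipopolysaccharide co-receptor gene, and Adgre1, which encodes F4/80. Cd14 varied little within groups, at 1004, 927 and 952 FPKM with NP-D@MP, against 1311, 1298 and 1298 FPKM with NP-D@M (-0.44, limma adjusted p 0.478). Of 14 genes of alternative activation, 3 were higher without overlap (Folr2 0.62, Ccl24 0.48 and Clec10a 0.28 as log2 fold changes), but 0 with read totals, and the arginase gene Arg1 overlapped at 3420, 4567 and 4576 FPKM with NP-D@MP, against 4143, 4562 and 4162 FPKM with NP-D@M.

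The PD-L1 gene Cd274 (chr19:29367455-29388095) had 41.3, 41.5 and 45.2 FPKM with NP-D@MP, against 60.98, 65.5 and 58.9 FPKM with NP-D@M. The groups were apart, with means of 42.7 ± 2.21 and 61.8 ± 3.39 FPKM (SD, n = 3 each), a log2 fold change of -0.52 (SE 0.14), an unadjusted p of 0.00584 and an adjusted p of 0.381 by limma. The gene of the other PD-1 ligand, Pdcd1lg2, was low and overlapped, at 0.973, 1.64 and 0.695 FPKM with NP-D@MP, against 2.95, 1.32 and 1.30 FPKM with NP-D@M. Of 12 checkpoint and costimulatory ligand genes tested, 5 were lower and 0 higher without overlap, beside 6.87% and 9.92% of all genes. With read totals these were again 5 and 0, beside 11.1% and 5.98%. The median was -0.21, beside 0.06 over all genes. The 5 lower on the deposited scaling are Cd274, the CD28 ligand gene Cd80, the costimulatory receptor gene Cd40, the TIGIT ligand gene Pvr and Cd47. The product of Cd47 inhibits phagocytosis through SIRP alpha. The last 4 genes had log2 fold changes of -0.25, -0.51, -0.35 and -0.25.

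**Figure D4:**
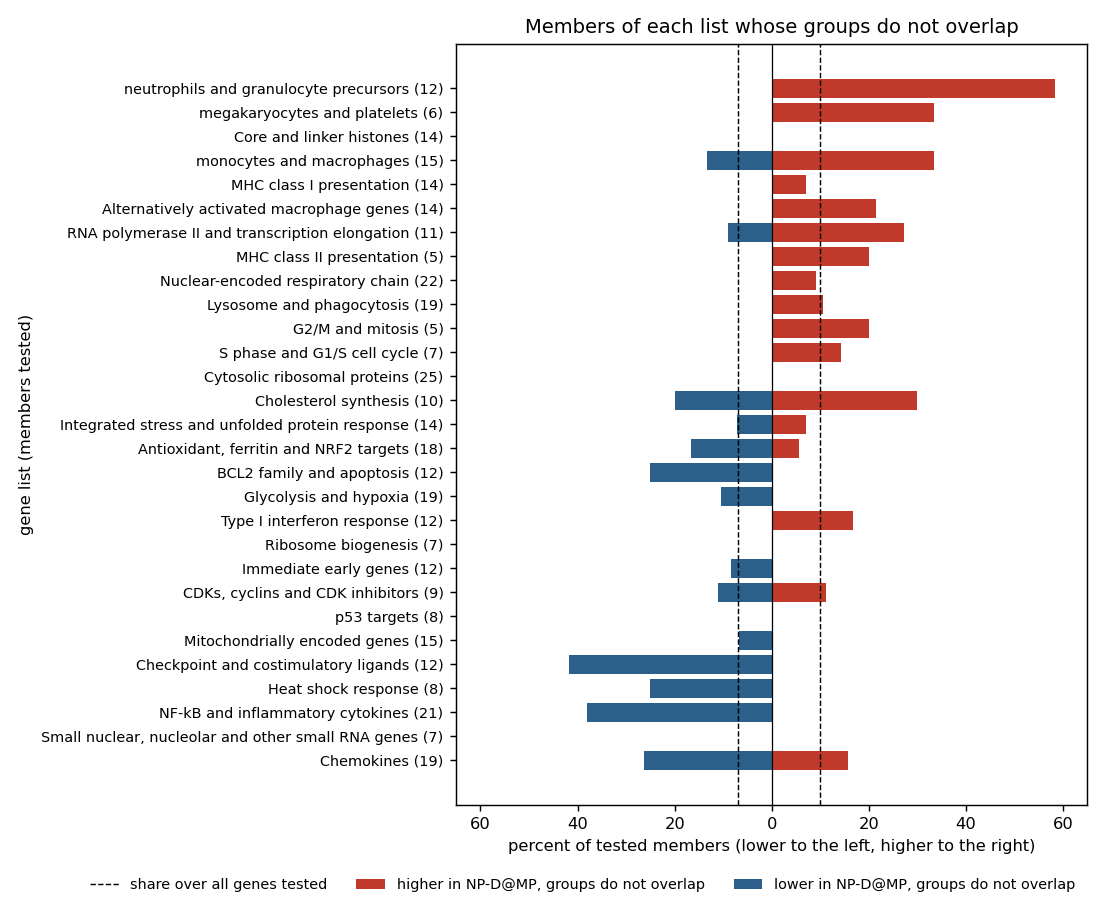
Percent of the tested members of each gene list with at least 5 tested genes whose groups do not overlap, higher with NP-D@MP to the right and lower to the left, with dashed lines at the shares over all genes, 9.92% and 6.87%. The neutrophil list reaches furthest to the right (7 of 12), and the checkpoint (5 of 12) and NF-kB (8 of 21) lists furthest to the left.

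Genes of the CDK axis named in the title differed little. Cdk1, the mitotic kinase gene, had 3.69, 4.83 and 3.71 FPKM with NP-D@MP, against 3.33, 4.06 and 3.63 FPKM with NP-D@M (log2 fold change 0.11, SE 0.18, limma adjusted p 0.838). Cdk5 had 17.6, 27.6 and 35.9 FPKM with NP-D@MP, against 20.9, 26.5 and 21.2 FPKM with NP-D@M (0.18, SE 0.26; -0.04 without NP-D@MP replicate 3). The groups overlapped in both genes. Cdkn1a, encoding the CDK inhibitor p21, had 6.95, 6.46 and 6.80 FPKM with NP-D@MP, against 9.90, 6.03 and 6.44 FPKM with NP-D@M (-0.10, SE 0.20; 0.10 without NP-D@M replicate 1). Of 9 CDK, cyclin and inhibitor genes tested, Cdk4 was higher and Ccnk lower without overlap, at log2 fold changes of 0.32 and -0.30. This is near the shares over all genes, 9.92% higher and 6.87% lower. With read totals 0 of the 9 were higher and 2 lower, beside 5.98% and 11.1%.

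Mcl1 and Rn7sk, genes tied to transcriptional CDKs by the short life of the first transcript and the role of the second RNA, were not separated either. Mcl1, the BCL2 family survival gene, had 4.28, 3.38 and 5.21 FPKM with NP-D@MP, against 4.81, 3.66 and 3.53 FPKM with NP-D@M (log2 fold change 0.08, SE 0.20), a direction that turned with read totals. Rn7sk, the RNA of the 7SK particle that holds elongation factor P-TEFb inactive, had 89.1, 305 and 243 FPKM with NP-D@MP, against 107, 93.2 and 213 FPKM with NP-D@M (0.54, SE 0.49, limma adjusted p 0.710). Myc and Irf1 did not pass the filter: Myc had 0.168, 0.0903 and 0.515 FPKM with NP-D@MP, against 0.383, 0.375 and 0.373 FPKM with NP-D@M. Irf1 had 0.374, 0.185 and 1.37 FPKM with NP-D@MP, against 0.116, 0.192 and 0.709 FPKM with NP-D@M, so its groups overlapped. The apoptosis genes Casp8, an initiator caspase, and Cflar, its inhibitor, were lower without overlap, at log2 fold changes of -0.33 and -0.30.

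In the metabolic and housekeeping lists, counts are again of groups without overlap, beside 9.92% higher and 6.87% lower over all genes. Of 10 sterol genes tested, 3 were higher and 2 lower. Among these were Mvk and Srebf2, higher, and Msmo1, lower (log2 fold changes 0.39, 0.32 and -0.35), while the list ran from -0.57 to 0.61. With read totals 0 sterol genes were higher and 2 lower, beside 5.98% and 11.1% of all genes on that scaling. Of 25 cytosolic ribosomal protein genes, 0 had non-overlapping groups in either direction and the median was 0.06. The 8 p53 targets, 7 ribosome biogenesis genes, 14 histone genes and 7 small RNA genes tested gave 0 as well. Of 8 heat shock genes, 2 were lower (Dnajb1 -0.50 and Hspa8 -0.41). Of 12 interferon response genes, 2 were higher (Bst2 0.49 and Irf7 0.35). The 2 lower of 19 glycolysis and hypoxia genes, and the 2 higher of 19 lysosome genes and of 22 nuclear-encoded respiratory chain genes, are near those shares; with read totals the lysosome list had 0 higher and 1 lower and the respiratory chain list 2 higher and 3 lower. Of 6 megakaryocyte and platelet markers 2 were higher, Pf4 and Treml1, and Treml1 entered through the group where it is high.

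The 20 genes with the smallest p kept their direction when any of the libraries was left out, in each fit where the gene had a value. Il12b had none without an NP-D@M library, since it then failed the filter. The size moved with single libraries: Il1b ranged between -3.03 and -2.08 on the log2 scale and Cxcl5 between -2.04 and -1.76.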

How the data were processed

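RNA sequencing of total RNA (Illumina TruSeq kit, per the labels' protocols) gave 1 deposited table of 11669 genes. Its values are FPKM scaled by the authors, a unit read from the values, since the deposited header does not name it. Multiplied by the table's gene length, 100% of values came out as whole reads after division by the smallest step of their library (tolerance 0.05), which recovered the reads; in the 6 libraries the steps imply a library size of 0.468 to 0.553 of the recovered reads, a factor between libraries whose method is not given in the sources used here. Bowtie 0.12.2 and mm8 are named, with no role, in the submitters' processing notes; 11659 identifiers were in GENCODE M21 and 11189 had equal coordinates on GRCm38, used here where equal. The choice of the genes in the table, and strand use in counting, are not given in the sources used here. Without molecular identifiers, reads do not count independent molecules, so intervals cover counting error only.

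Genes with at least 1 FPKM in at least 3 of the 6 libraries were fitted as log2(FPKM + 1), which understates changes of low genes, with limma 3.58.1 in R 4.3.3 (2 group means, trend and robust options), 2-sided, Benjamini-Hochberg over all 5869 genes, threshold 0.05. Voom on recovered reads was an alternative. The fit was tested on simulated data. Summaries used pandas 2.3.3, scipy 1.17.1, numpy 2.4.6 and, for figures, matplotlib 3.10.9 under Python 3.11.15. Within groups, libraries differed by more than sampling noise, so none was counted as a duplicate. NP-D@MP replicate 1 stood apart within its group.

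The members and 37 gene lists were chosen with earlier results of these data known. Named were the 10 genes per direction with the smallest p, a proper symbol, non-overlapping groups and at least 5 FPKM in the higher group (no gene passed the call), 9 fixed genes, the most abundant members of lists, and others chosen after their values were seen. Some genes are not reported here. Alternatives changed scaling, pseudocount, filter, test and libraries.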

Additional observations from a re-analysis of the deposited data

How the results depend on the processing

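The count of called genes depended on the method. It was 0 in the fit as reported, 1 (Cxcl5) with equal medians and with quantile normalization, 4 with voom and 9 with voom and library quality weights, which was added after the data were seen (2 higher, Ngp and Ltf; 7 lower). Leaving out 1 library gave 0 to 3, the 3 (Cxcl5, Il1b and mt-Tt) without NP-D@MP replicate 2. Called members of the lists numbered 0 as reported, 1, 1, 3 and 5 under the same settings, and 0 to 2 with 1 library left out. The remaining settings, among them no filter on low values, a pseudocount of 0.1 and all 12 libraries in the fit, gave 0 called genes. Genes at an unadjusted p under 0.05 numbered 957 without NP-D@MP replicate 1, 324 without NP-D@MP replicate 3, 369 with all 12 libraries and 12 when tested against a log2 fold change of 1. The cause was not tested.

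The median log2 fold change of all genes was 0.06 as reported, -0.025 with read totals, -0.024 with read totals without mitochondrial genes, 0.0099 with the median of ratios, 0.00029 with quantile normalization, -0.030 with voom, -0.013 with voom and quality weights, and 0.03 to 0.08 with 1 library left out. The NF-kB list's median was -1.44 with a filter of 5 FPKM, which tests fewer genes. With 1 library left out, it ran from -0.45 to -0.29 and the neutrophil list's from 0.73 to 1.09. The difference in mitochondrial read share ran from -0.575 (without NP-D@MP replicate 1) to 0.479 percentage points, with -0.0320 without NP-D@M replicate 1. Of 1653 values of 84 single genes under 20 alternatives, 1632 kept direction and side, 15 gained a call and 6 turned sign: Mcl1 (-0.0037 with read totals, -0.0030 without mitochondrial genes, -0.047 to 0.21 with 1 library left out), Pf4 (-0.037 with quantile normalization), Cdk5 (-0.042 to 0.45) and Cdkn1a (-0.22 to 0.10). No paired analysis was possible because the replicate numbers follow accession order only and no label ties libraries of the groups to each other. With 3 libraries a group, depth and number limit what could be called: genes near 1 FPKM, such as Myc, Irf1 and Cxcr2, rest on few reads.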

Other observations

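Beside the groups without D, the place of the leading genes depends on the scaling, because the library size implied by the deposited values is 0.468 to 0.553 of the recovered reads with D and 2.19 to 2.36 of them without D. The values here carry no test and were chosen after they were seen; RPM are recovered reads scaled to the library total. Cxcl5 averaged 81.1 ± 19.8 RPM with NP-D@MP, 312 ± 36.2 RPM with NP-D@M, 143 ± 28.1 RPM with NP@M and 139 ± 29.1 RPM with PBS (SD, n = 3 each). In deposited FPKM it was 31.4, 40.4 and 27.2 with NP@M and 24.2, 34.4 and 39.1 with PBS, so NP-D@M was the highest group on both scales, while NP-D@MP was the lowest in RPM and above both groups without D in FPKM. Il1b averaged 26.7 ± 20.96 RPM with NP-D@MP, 141 ± 50.4 RPM with NP-D@M, 248 ± 53.3 RPM with NP@M and 236 ± 73.3 RPM with PBS. In deposited FPKM it was 46.9, 70.0 and 50.3 with NP@M and 34.6, 57.4 and 70.9 with PBS, below every NP-D@M value. The order of the means was thus the reverse of that in RPM. Single libraries overlapped in RPM, with 154 in PBS replicate 1 and 193 in NP-D@M replicate 1. Ngp averaged 132 ± 37.2 RPM with NP-D@MP, 46.7 ± 5.14 RPM with NP-D@M, 353 ± 174 RPM with NP@M and 372 ± 84.3 RPM with PBS. In deposited FPKM it was 147, 54.6 and 168 with NP@M and 164, 115 and 118 with PBS. By the means, the order of NP-D@MP against the groups without D turned there too. Cd274 averaged 75.1 ± 1.75 RPM with NP-D@MP, 116 ± 5.15 RPM with NP-D@M, 707 ± 188 RPM with NP@M and 697 ± 234 RPM with PBS. In deposited FPKM it was 68.9, 110.2 and 72.1 with NP@M and 59.2, 74.3 and 121 with PBS. On this scale PBS overlapped NP-D@M (60.98, 65.5 and 58.9 FPKM). All NP-D@MP values (41.3, 41.5 and 45.2 FPKM) lay below both groups without D.

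Some further genes separated by a log2 fold change of at least 1 and were likewise singled out after their values were seen. Gchfr, the regulator of GTP cyclohydrolase, had 14.4, 15.0 and 15.4 FPKM with NP-D@MP, against 2.87, 6.92 and 7.51 FPKM with NP-D@M (log2 fold change 1.32, SE 0.30, limma adjusted p 0.343). Tomm7, a subunit of the mitochondrial import machinery, had 42.6, 38.9 and 91.7 FPKM with NP-D@MP, against 18.0, 22.3 and 27.3 FPKM with NP-D@M (1.23, SE 0.33). The RNA host gene Snhg8 had 7.51, 7.91 and 9.98 FPKM with NP-D@MP, against 2.03, 2.84 and 5.02 FPKM with NP-D@M (1.19, SE 0.27). Olr1, the oxidized LDL receptor gene, had 19.6, 15.2 and 12.5 FPKM with NP-D@MP, against 28.5, 40.8 and 29.3 FPKM with NP-D@M (-1.02, limma adjusted p 0.321). None of these 4 had overlapping groups.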
